A study of Mus musculus with 73 samples.

Results

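The crypt stem cell and Wnt target genes of the mouse jejunum, 8 in all, were followed through 3 kinds of measurement, with the question of whether Lgr5 parted from the other 7. The 8 genes, Lgr5, Olfm4, Ascl2, Smoc2, Axin2, Slc12a2, Sox9 and Cd44, were taken from a list. No measured value set the choice, but the list was drawn up with earlier results of these data known. All 8 were among the 17399 genes of the epithelium table and the 21058 genes of the single-cell table. Of the 20882 genes of the microdissection table, 5 members could be read. Olfm4, Smoc2 and Slc12a2 were not analysed there.

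The epithelium came from 8 male mice of the strain Lgr5(GFP-ires-DTR/+), 4 months old, in which 1 copy of the Lgr5 locus also carries GFP and the diphtheria toxin (DT) receptor. Per the study's methods, 4 mice received DT and 4 received saline, and the jejunal epithelium was taken 48 h later. All cells that use the Lgr5 promoter carry the receptor, so crypt stem cells and stromal cells of the villus tip were targeted together, in the control mice as a receptor without toxin. The other 2 measurements used untreated C57BL/6 mice of 3 months: 29 laser-dissected stromal sections of 5 mice (crypt, villus bottom, villus center and villus tip), and plates of sorted single cells of 8 mice.

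Lgr5 encodes a receptor for R-spondins, which hold Wnt receptors at the cell surface, and it marks the crypt base columnar stem cells. In these cells Wnt signals stabilise beta-catenin, which together with TCF factors switches on targets such as Axin2, Ascl2, Sox9, Cd44 and Lgr5 itself. Olfm4 and Smoc2 encode secreted proteins that are used as stem cell markers, and Slc12a2 encodes the sodium, potassium and chloride cotransporter of crypt cells.

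In the GRCm38 annotation all 8 are protein-coding genes. Lgr5 lies on the minus strand of chromosome 10 from 115450311 to 115587780, Olfm4 on the plus strand of chromosome 14 from 79984081 to 80023139, and Ascl2 on the minus strand of chromosome 7 from 142966829 to 142969264. Smoc2 lies on the plus strand of chromosome 17 from 14279506 to 14404790, and Slc12a2 on the plus strand of chromosome 18 from 57878678 to 57946821. Axin2 and Sox9 are both on the plus strand of chromosome 11, from 108920349 to 108950783 and from 112782224 to 112787760. Cd44 lies on the minus strand of chromosome 2 from 102811141 to 102901665.

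The 8 epithelial libraries held 748458 to 4210158 unique molecular identifiers (UMIs, each standing for 1 captured RNA molecule). The study's supplement places replicates 1 and 2 of both groups in batch a and replicates 3 and 4 in batch b. Mitochondrial genes took 5.14 to 13.2% of the UMIs. Nothing in the sources says whether UMIs from the knock-in copy of Lgr5 were counted with those of the intact copy.

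Lgr5, the targeted gene, had a lower mean after DT in each batch, but its groups overlapped and the difference did not pass the test. In CPM (UMIs of a gene per 1000000 UMIs of the library), Lgr5 was at 42.8, 69.5, 11.2 and 24.2 in control replicates 1 to 4 and at 47.2, 32.4, 6.37 and 13.2 in DT replicates 1 to 4. The order followed the batch, since all 4 values above 30 CPM came from batch a, whichever group they belonged to. edgeR's quasi-likelihood test with batch as a term put Lgr5 at a log2 fold change of -0.75 (SE 0.32, 95% interval -1.44 to -0.06), with an unadjusted p of 0.0357 and a Benjamini-Hochberg adjusted p of 0.258. In bulk RNA, fewer cells of a type and less RNA in each cell cannot be told apart.

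**Figure D1:**
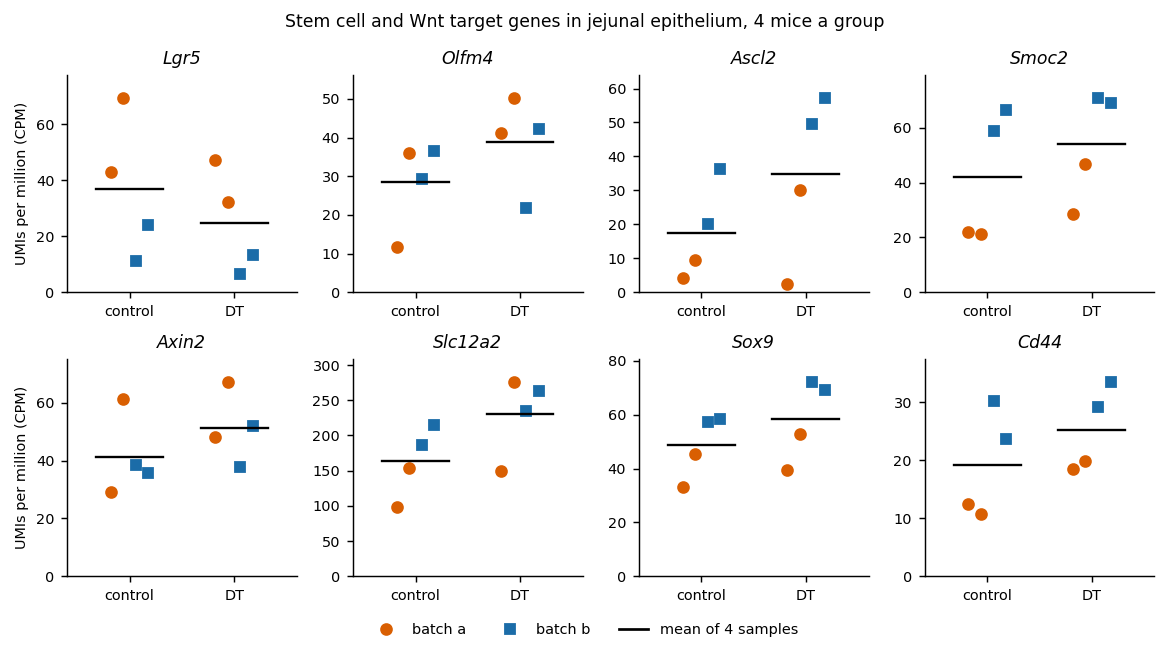
Each panel plots 1 gene in CPM for 4 control and 4 DT mice; circles are batch a, squares are batch b and the line is the mean of 4 samples. Lgr5 is the gene with a lower DT mean (24.8 against 36.9 CPM), and its batch b samples, at 6.37 to 24.2 CPM, lie below its batch a samples, at 32.4 to 69.5 CPM.

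The other 7 members all had a higher mean after DT, and none of the 8 passed an adjusted p of 0.05 in edgeR. Over all 8986 genes tested, 0.356% passed, 0.0223% higher and 0.334% lower after DT, so a count of 0 in 8 is near the background. With the replicate number as a block in place of the batch, 3 genes and again no member passed. At an unadjusted p under 0.05 the test took 17.3% of all genes and 1 of the members, Lgr5. DESeq2 also called no member. The median log2 fold change of the 8 members was 0.35, beside 0.004 over all genes tested.

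Ascl2, a transcription factor of the stem cell state, was at 4.15, 9.35, 19.95 and 36.3 CPM in the controls and at 2.53, 29.98, 49.6 and 57.3 CPM after DT, with a log2 fold change of 1.06 (SE 0.49, adjusted p 0.299 in edgeR). DT replicate 1, with 3 UMIs of Ascl2, was the lowest of all 8 samples, and the groups overlapped. Olfm4 was at 11.7, 36.1, 29.2 and 36.6 CPM in the controls and at 41.3, 50.3, 21.8 and 42.3 CPM after DT (log2 fold change 0.36, SE 0.34, adjusted p 0.595 in edgeR). Its DT values were above both controls in batch a, but spread around the controls in batch b.

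Smoc2, a calcium-binding matrix protein, was at 22.1, 21.4, 58.7 and 66.4 CPM in the controls and at 28.6, 46.9, 70.9 and 69.1 CPM after DT. Within each batch both DT samples were above both controls, and the log2 fold change was 0.37 (SE 0.21, adjusted p 0.362 in edgeR). Slc12a2 was the most abundant member by UMIs, at 98.1, 154, 186 and 215 CPM in the controls and 149, 276, 234 and 263 CPM after DT. Its log2 fold change was 0.47 (SE 0.24, adjusted p 0.325 in edgeR), and in batch b both DT samples were above both controls.

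Axin2, the scaffold that feeds back on the Wnt pathway, was at 29.0, 61.5, 38.5 and 35.8 CPM in the controls and at 48.0, 67.2, 37.7 and 52.0 CPM after DT. Sox9, a transcription factor of crypt cells, was at 33.2, 45.4, 57.5 and 58.3 CPM in the controls and at 39.6, 52.7, 72.2 and 69.1 CPM after DT. Cd44, a hyaluronan receptor, was at 12.4, 10.7, 30.2 and 23.7 CPM in the controls and at 18.5, 19.8, 29.2 and 33.5 CPM after DT. All 3 genes overlapped between the groups, with log2 fold changes of 0.28, 0.23 and 0.35 and edgeR adjusted p of 0.550, 0.510 and 0.366. None of the 8 members had groups that did not overlap, against 2.96% of all genes tested.

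Lgr5 was then set against each other member inside the same sample, as the log2 of the ratio of their CPM with 1 CPM added to each. This difference was lower after DT for all 7 partners and in both batches, with differences of means of -0.88 (Sox9) to -1.36 (Ascl2) on the log2 scale. The ratio to Olfm4, for example, had a mean of 0.21 ± 1.41 (SD, n = 4) in the controls and -0.92 ± 0.87 (SD, n = 4) after DT, and an exact two-sided permutation test over the 8 samples gave p = 0.2. For the 7 partners the exact permutation p ran from 0.2 to 0.457, where the smallest p possible is 0.0286, and every p adjusted over the 7 comparisons was 0.457. The 7 comparisons share the Lgr5 values and are not independent.

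The spread between batches was wider than the difference between groups. With values centred on each batch and exact permutations within batches, p was 0.0556, the smallest that 36 splits allow, for Olfm4, Smoc2, Axin2, Slc12a2 and Sox9, and it was 0.111 for Cd44 and 0.167 for Ascl2. This design could not reach 0.05. The share of Lgr5 among all UMIs of the 8 members was 16.9, 17.0, 2.59 and 4.88% in the controls and 12.6, 5.63, 1.22 and 2.20% after DT. The exact 95% binomial interval of DT replicate 3 ran from 0.784 to 1.81%, and that of control replicate 2 from 13 to 21.7%, which covers counting error only.

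The batch term of the same fit, read after the data had been seen, separated Lgr5 from 4 of its partners. Lgr5 was lower in batch b, with a log2 fold change of -1.92 (SE 0.32, adjusted p 0.00142 in edgeR). Ascl2, Smoc2, Sox9 and Cd44 were higher in batch b, with log2 fold changes of 1.70, 1.07, 0.50 and 0.82 and edgeR adjusted p of 0.0238, 0.00302, 0.0423 and 0.00766. Olfm4 (-0.14), Axin2 (-0.41) and Slc12a2 (0.35) did not pass. So 4 of 8 members were called higher and 1 lower, where 21.1% of all genes were called higher and 20.9% lower, a share of 42.1% in either direction. The log2 ratio of Lgr5 to Ascl2, Smoc2, Slc12a2, Sox9 or Cd44 did not overlap between the batches, and its ratio to Olfm4 or Axin2 did.

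**Figure D2:**
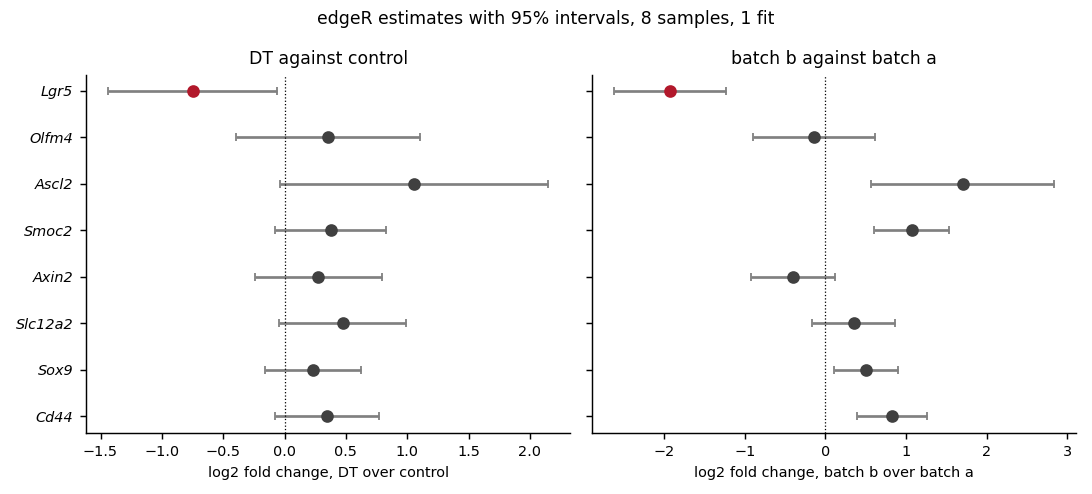
Points are edgeR log2 fold changes of the 8 genes with 95% intervals, for DT over control on the left and batch b over batch a on the right, from 1 fit of 8 samples; Lgr5 is in red. Lgr5 is at -0.75 on the left and at -1.92 on the right, on the other side of 0 from the other 7 on the left and from Ascl2, Smoc2, Slc12a2, Sox9 and Cd44 on the right.

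Genes of other cells also differed between these libraries. In the list of 7 mesenchymal genes no gene passed the filter, and their summed level was 8.02 to 18.3 CPM in the controls and 3.52 to 22.8 CPM after DT. By batch this sum was 4.35 to 22.8 CPM in batch a and 3.52 to 18.3 CPM in batch b, so the batches overlapped. Ebf1, one of 10 genes of villus tip telocytes (Pdgfra-positive stromal cells with long processes) that the study drew from the single cells of this series, was at 38.0, 56.1, 11.9 and 3.76 CPM in the controls and at 30.3, 22.7, 1.86 and 6.17 CPM after DT. Pecam1, the 1 gene tested of 5 endothelial genes, was at 20.04, 17.4, 3.8 and 3.23 CPM in the controls and at 11.8, 10.6, 1.06 and 2.20 CPM after DT. Like Lgr5, Ebf1 and Pecam1 were higher in batch a than in batch b, with batch log2 fold changes of -2.76 and -2.67, and neither passed the test of DT (adjusted p 0.232 and 0.222 in edgeR). S100a6, the other villus tip telocyte gene tested, was at 85.7, 50.8, 74.1 and 58.9 CPM in the controls and at 59.0, 55.1, 119 and 97.3 CPM after DT, with log2 fold changes of 0.20 for DT and 0.35 for the batch, neither of them called. Of the lists of crypt telocytes, myofibroblasts and enteric mesothelial fibroblasts 3, 2 and 1 of 10 genes were tested, with no call for DT. Their DT log2 fold changes were -0.31 (Fbln1), -0.32 (C3), 0.10 (Tmem176a), -0.71 (Mylk), 0.31 (Pdlim1) and -0.04 (Pde3a). In the batch term Fbln1, C3, Mylk and Pde3a were called lower in batch b, as Lgr5 was, and Pdlim1 higher, while Tmem176a was not called. The summed level of the villus tip telocyte list overlapped between the batches, at 79.8 to 128 CPM in batch a and 68.6 to 129 CPM in batch b. That of the myofibroblast list overlapped too. The sums of the endothelial, crypt telocyte and enteric mesothelial fibroblast lists were lower in batch b without overlap. The part of stromal cells in the Lgr5 values was not tested.

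Paneth cells sit between the stem cells at the crypt base, and 2 of their genes fell after DT. Of 8 Paneth genes 7 were tested, all 7 with a log2 fold change below 0 and a median of -1.75. Mptx2, a pentraxin, fell from 32.5, 104, 65.3 and 47.3 CPM in the controls to 10.95, 8.22, 10.9 and 6.61 CPM after DT, and Itln1, an intelectin, fell from 710, 640, 2005 and 892 to 297, 156, 334 and 156 CPM. In both genes every DT sample was below every control, with log2 fold changes of -2.76 and -2.12 and adjusted p of 0.0166 and 0.0341 in edgeR. They were the 2 Paneth genes called, where 0.334% of all genes were called lower. The call of Itln1 was lost with the replicate block (adjusted p 0.0624 in edgeR) and whenever 1 sample other than DT replicate 1 was left out (adjusted p 0.0569 to 0.126). That of Mptx2 held with the block (adjusted p 0.0378 in edgeR) and was lost without DT replicate 2 (adjusted p 0.0704).

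The other genes of the pathway and of crypt cells showed no call in either direction. Of 14 other Wnt targets 7 were tested, 5 above 0 and 2 below, with a median log2 fold change of 0.08. Rnf43, a ubiquitin ligase that removes Wnt receptors and so opposes Lgr5, was at -0.49 (adjusted p 0.288 in edgeR), while Myc, Lgr4 and Ccnd1 were at 0.20, 0.13 and 0.18. Of 13 other stem cell genes 9 were tested, 8 of them above 0, with a median of 0.49. Igfbp4 (1.14, adjusted p 0.194 in edgeR), Aqp4 (0.72), Cdca7 (0.58) and Hopx (0.49) were the lowest in p among them.

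All 12 proliferation genes were tested and all 12 had a log2 fold change above 0, with a median of 0.50 and no call. Birc5, Ccnb1, Tyms and Ccna2, which act in mitosis or nucleotide synthesis, were at 0.83, 0.85, 0.78 and 0.76, with the lowest adjusted p at 0.177 in edgeR. DESeq2 called Birc5 higher (adjusted p 0.0386). In the batch term 10 of these 12 were called higher in batch b. Of 9 genes of epithelial regeneration 2 were tested, Il33 at -0.49 and Areg at 0.46. The 8 immune genes all had a log2 fold change below 0 with a median of -0.54 and no call, and of 6 epithelial markers 2 were above 0 and 4 below.

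As a description of likeness, levels were centred on each batch and correlated over the 8 samples, which share libraries and depth. Lgr5 ran with the other 7 at Pearson correlations of -0.58 (Cd44) to 0.24 (Olfm4), while those 7 ran with each other at 0.23 (Ascl2 with Cd44) to 0.91 (Slc12a2 with Sox9). The genes most like Lgr5 were Scaper (0.955), Ylpm1 (0.949) and Azin1 (0.947). Those most like Olfm4 were Lmnb1 (0.984), Rbbp7 (0.984) and Zfp704 (0.979), so the leading genes of the 2 lists were different.

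In microdissected stroma, stem cell genes other than Lgr5 were taken as a rough measure of epithelial material carried over with the section. Axin2, Sox9 and Cd44 also had UMIs in mesenchymal-like single cells, Cd44 in a larger share than in epithelial-like cells. These genes therefore do not measure epithelial material alone. Genes that make up the first 50% of the UMIs of the control epithelium, 375 of them in the table, were left out of the scale. The study's methods set a like limit on an earlier enterocyte dataset, not used here, and left out far fewer genes. The 375 genes took 4.97 to 44.7% of the deposited TPM, a unit that sums to 1000000 transcripts in a section. Values are given as parts per 1000000 (ppm) of the remaining genes, averaged over the 1 or 2 sections of a mouse in a zone. The summed level of 4 epithelial markers was 3365 to 6533 TPM in the crypt and 543 to 4127 TPM at the villus tip, so epithelial RNA was present in every zone. The summed level of 7 mesenchymal markers, 92.5 to 380 TPM in the crypt and 30.8 to 195 TPM at the tip, was lower than that in each sample mean.

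Lgr5 was at 0.924, 2.79, 43.4, 17.7 and 334 ppm at the villus tip of mice 1 to 5, and at 1.67, 25.4 and 4.35 ppm in the crypt of mice 1 to 3. The tip values spanned all those of the crypt, and the highest came from 1 section of mouse 5. In mouse 3 the 2 tip sections gave 7.49 and 79.2 ppm, so sections of 1 mouse also differed widely. limma on log2(ppm + 1) put the tip over the crypt by 1.34 (SE 1.28, 95% interval -1.31 to 3.99, adjusted p 0.991), an exact permutation test over mice gave p = 0.554, and Lgr5 was higher at the tip in 1 of the 3 mice with both zones. With mouse as a term the difference was 0.48, in the 3 paired mice the mean difference was -0.07, and without mouse 5 it was 0.29, so its direction was not settled.

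Against the villus bottom, where Lgr5 was at 3.59, 1.96, 3.44, 12.8 and 16.7 ppm, the tip was higher in 4 of 5 mice. The difference was 1.42 (SE 1.11, adjusted p 0.990 in limma), and an exact paired permutation test gave p = 0.312, where 0.0625 is the smallest possible. It was 0.72 without mouse 5, 0.95 without mouse 3 and 2.09 without mouse 1. In the villus center Lgr5 was at 0.516 to 9.22 ppm. The order of the zone medians was tip (17.7 ppm), center (8.19 ppm), crypt (4.35 ppm) and bottom (3.59 ppm), and no neighbours in it differed beyond the spread of the mice. Over all 13535 genes tested, limma called 0% in either comparison, while an unadjusted p under 0.05 took 3.26% for the tip against the crypt and 4.58% for the tip against the bottom, and none of the members in either. No gene of the other Wnt targets, other stem cell genes or proliferation genes was called, with medians of -0.10, 0.08 and 0.06 for the tip over the crypt.

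Ascl2 was listed at 0 in most of the stroma, and sections of 1 mouse and zone differed. It was listed at 0 in 19 of 29 sections, at 0.0839, 18.2 and 4.16 ppm in the crypt of mice 1 to 3, and at 0, 0, 4.27, 0 and 0 ppm at the tip of mice 1 to 5. The 2 crypt sections of mouse 2 gave 36.3 and 0 ppm and those of mouse 3 gave 8.31 and 0 ppm. It was listed at 0 in mouse 5, in the tip section where Lgr5 was at 334 ppm. The tip over crypt difference was -1.77 (SE 0.98, adjusted p 0.991 in limma, exact permutation p = 0.125). Lgr5 was listed at 0 in 3 of 29 sections. Sections held 5481 to 17306 genes above 0, and neither these files nor their TPM unit gives the depth behind a 0.

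Axin2 and Sox9 were found in most sections. Axin2 was at 28.7, 52.3 and 21.0 ppm in the crypt and at 22.6, 16.8, 50.8, 3.71 and 30.2 ppm at the tip. Sox9 was at 5.78, 21.3 and 25.1 ppm in the crypt and at 9.22, 11.5, 49.8, 5.64 and 5.94 ppm at the tip. Both overlapped between the zones, with tip over crypt differences of -0.71 and -0.35 (adjusted p 0.991 in limma for both). Mouse 3 had the highest tip value of Ascl2, Axin2 and Sox9, and the second highest of Lgr5.

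Cd44 had its medians in another order, with 28.1 ppm at the villus bottom, 18.3 ppm in the crypt, 13.7 ppm in the center and 13.2 ppm at the tip. It was at 2.59, 2.67, 13.2, 55.6 and 19.2 ppm at the tip and at 4.81, 18.3 and 25.3 ppm in the crypt. The tip over bottom difference was -1.39 (SE 0.93, adjusted p 0.990 in limma). Immune cells also use Cd44, and the summed level of 8 immune markers was 278 to 1101 TPM at the villus bottom and 94.1 to 302 TPM at the tip. Its part in the Cd44 values was not tested.

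**Figure D3:**
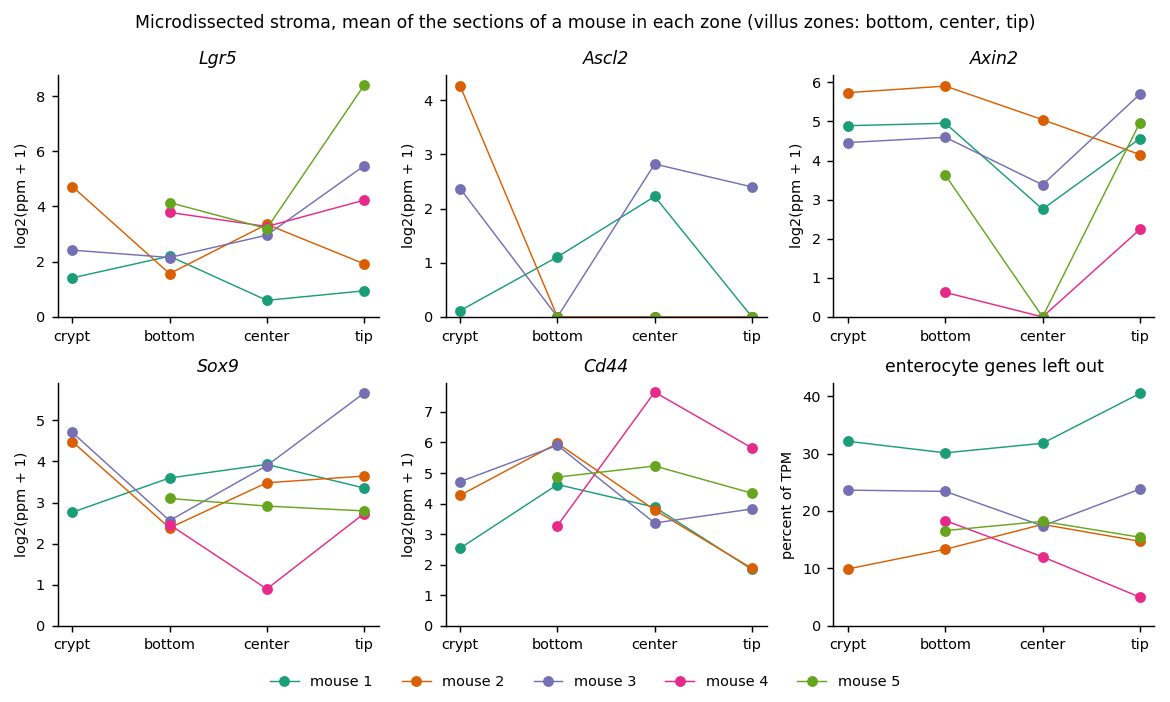
Each of the first 5 panels plots 1 gene as log2(ppm + 1) over 4 stromal zones, with 1 line for each mouse (mean of its 1 or 2 sections); the last panel gives the share of TPM held by the enterocyte genes left out. Lgr5 ends at 334 ppm in the tip of mouse 5, where Ascl2 is at 0 and the enterocyte share is 15.4%.

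Inside a section mean, the log2 ratio of Lgr5 to each of the other 4 members was higher at the tip than in the crypt, and none of the 4 differences passed an exact permutation test. The ratio to Ascl2 was 3.71 ± 2.89 (SD, n = 5) at the tip and 0.60 ± 0.63 (SD, n = 3) in the crypt, a difference of 3.11 (exact permutation p = 0.107, smallest possible 0.0179). For Axin2, Sox9 and Cd44 the differences were 2.05, 1.68 and 1.64, with exact permutation p of 0.321, 0.518 and 0.339. In the 3 mice with both zones the paired differences were 1.38 (Ascl2), 0.15 (Axin2), -0.31 (Sox9) and 1.26 (Cd44). Their exact permutation p ran from 0.5 to 1, where the smallest possible is 0.25. For Ascl2, Axin2 and Sox9 much of the difference thus came with mice 4 and 5, whose crypt was not analysed here. For Cd44 the paired difference and that over all mice lay closer together, at 1.26 and 1.64. Of the summed ppm of these 5 members at the tip, Lgr5 took 2.62, 8.27, 26.9, 21.4 and 85.8% in mice 1 to 5.

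Over the 18 means of a mouse and zone, Lgr5 ran with Ascl2, Axin2, Sox9 and Cd44 at Pearson correlations of 0.07, 0.04, 0.08 and 0.19, whereas Ascl2 and Sox9 ran together at 0.72. The genes most like Lgr5 were Fry (0.901), Olfr1044 (0.888), Csn1s2b (0.878), Ift80 (0.874) and Flg (0.872). Fry, Olfr1044, Csn1s2b and Flg were highest in the tip of mouse 5, as Lgr5 was, and Ift80 in that of mouse 3. These correlations are descriptions of 18 means that share mice and base composition.

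In the single cells, wells with 400 to 8000 UMIs and at least 250 genes left 2347 cells. From clusters made without the 8 members, 1662 were epithelial-like, 336 mesenchymal-like and 200 immune-like, and 149 led by mitochondrial genes stayed unnamed. Clusters were named by marker lists, so finding these markers in them is no test of the names. A UMI of their own list was in 98.6% of epithelial-like and 98.8% of mesenchymal-like cells. An epithelial marker was also in 11.6% of mesenchymal-like and 89.9% of unnamed cells. The sort gates did not follow the classes, since 72 of 73 cells of the gate CD45Singlets were epithelial-like and none immune-like, and 582 of 957 of PdgfraSinglets were epithelial-like. Doublets were not called, and gates labelled as doublets were kept in the main count. The plates use 384 well barcodes, and each of the 12346 wells shares its barcode with a well of another plate.

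The shares of epithelial-like and mesenchymal-like cells with Lgr5 lay within each other's intervals. It had a UMI in 50 of 1662 epithelial-like cells (3.01%, exact 95% interval 2.24 to 3.95%), in 10 of 336 mesenchymal-like cells (2.98%, 1.44 to 5.41%) and in 0 of 200 immune-like cells, where a count of 0 leaves room for 1.5%. Median depths in this order of classes were 1565, 1021 and 666.5 UMIs. With each cell thinned to 400 UMIs the shares were 0.723% and 0.738%, near the level of a single UMI. Cells of a mouse share their plates, and these intervals cover counting error only.

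By mouse, the share of epithelial-like cells with Lgr5 ran from 0 of 128 in mouse C to 10 of 116 in mouse B (8.62%). Of the 10 mesenchymal-like cells with Lgr5, 8 came from mouse G, 1 from mouse A and 1 from mouse B. Mouse G also gave 198 of the 336 mesenchymal-like cells and 90 of the 115 villus tip telocyte-like cells. By subcluster, 6 were villus tip telocyte-like (of 115 cells, 5.22%, 1.94 to 11.01%), 2 were crypt telocyte-like (of 120 cells, 1.67%, 0.202 to 5.89%), and 1 each was myofibroblast-like and enteric mesothelial fibroblast-like. The intervals of both telocyte classes overlap. These names rest on markers that the study had drawn from these same cells.

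Olfm4 and Ascl2 were found in epithelial-like cells alone among the named classes, and in few of them. Olfm4 had a UMI in 10 of 1662 (0.602%) and Ascl2 in 5 (0.301%), with 0 of 336 mesenchymal-like cells for either, where up to 0.893% could go unseen. That limit lies above both epithelial shares, and so no difference was detectable for these genes at this depth. Sox9 had a UMI in 28 epithelial-like cells (1.68%) and 2 mesenchymal-like cells (0.595%), and Axin2 in 79 (4.75%) and 7 (2.08%), with Axin2 also in 2 of 200 immune-like cells (1.00%).

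Smoc2 and Cd44 lay on the side of the stroma. Smoc2 had a UMI in 68 of 336 mesenchymal-like cells (20.2%, 16.1 to 24.9%) and in 19 of 1662 epithelial-like cells (1.14%, 0.690 to 1.78%), with 0 of 200 in immune-like cells. Among the subclusters it was in 31 of 115 villus tip telocyte-like cells, 19 of 120 crypt telocyte-like cells, 7 of 73 myofibroblast-like cells and 11 of 28 enteric mesothelial fibroblast-like cells. Cd44 had a UMI in 17 mesenchymal-like cells (5.06%), 4 immune-like cells (2.00%) and 7 epithelial-like cells (0.421%). Slc12a2 had a UMI in 41 epithelial-like cells (2.47%) and 13 mesenchymal-like cells (3.87%), 9 of these 13 among the 28 enteric mesothelial fibroblast-like cells.

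UMIs were then summed for each mouse and class, with 8 epithelial-like and 3 mesenchymal-like sums. No member passed edgeR's filter on low counts in this comparison, nor in that of villus tip against crypt telocyte-like cells with 3 sums each, so no member was tested or called. Over all genes, 56.6% of 4080 were called in the former (32.6% higher and 24.0% lower in epithelial-like cells) and 6.01% of 466 in the latter (1.72% higher and 4.29% lower in villus tip telocyte-like cells). With no filter 2 members were called, both lower in epithelial-like cells: Smoc2 by a log2 fold change of -4.41 (adjusted p 2.98e-13 in edgeR) and Cd44 by -3.35 (adjusted p 9.85e-05 in edgeR). Lgr5 was at 0.32 (adjusted p 0.752 in edgeR) in that fit. With the filter on, it was at -0.21 without mouse A and -0.77 without mouse E. These fits differ from the former in both the filter and the mice, so the direction of Lgr5 was not settled. Lgr5 was at 8.57, 0 and 33.3 CPM in the 3 mesenchymal-like sums and 0 to 62.1 in the 8 epithelial-like sums. In the same 3 sums, of mice A, E and G, Smoc2 was at 154, 0 and 270 CPM and Cd44 at 68.5, 0 and 55.4 CPM. The mesenchymal-like side of both calls thus rested on mice A and G.

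Within the epithelium, 5 members gathered in 1 cluster of 107 cells that was led by the histone genes Hist1h2ap, Hist1h2ao and Hist1h2ak and held 63.4% of the UMIs of the proliferation genes. This cluster held 9.67% of all epithelial UMIs. It held 75.7% of those of Slc12a2 (56 of 74), 71.4% of Olfm4 (10 of 14), 71.4% of Ascl2 (5 of 7), 65.0% of Smoc2 (13 of 20) and 48.7% of Sox9 (19 of 39). Cd44 was at 36.4% (4 of 11, 10.9 to 69.2%), on UMIs of 2 cells. Lgr5 was at 14.8% (8 of 54, exact 95% interval 6.62 to 27.1%) and Axin2 at 10.3% (10 of 97, 5.06 to 18.1%), near the share of all genes. UMIs of 1 cell are not independent, and these intervals cover counting error only. The cluster's UMIs came from 28 cells for Slc12a2, 7 for Olfm4, 3 for Ascl2 and 6 for Lgr5.

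**Figure D4:**
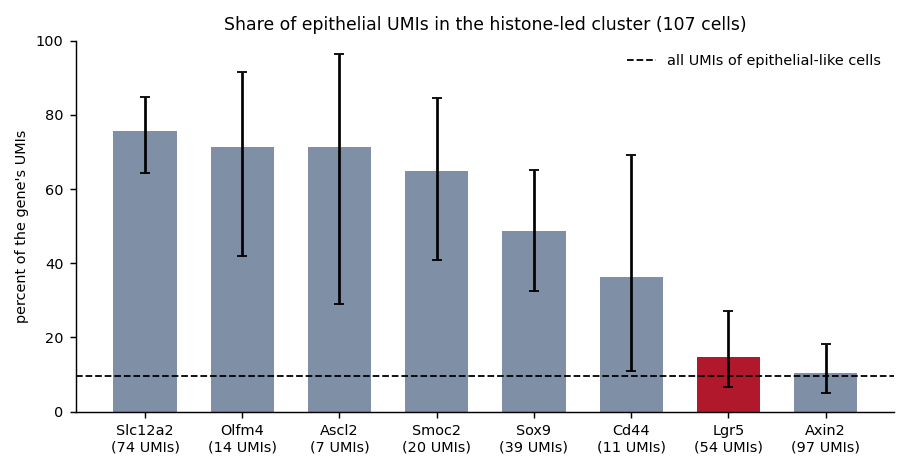
Bars give the percent of each gene's UMIs in epithelial-like cells that lie in the 107-cell histone-led cluster, with exact 95% binomial intervals. The mice are pooled, the intervals cover counting error only, and the dashed line is the share of all UMIs. Slc12a2 is at 75.7%, Lgr5, in red, at 14.8% and all genes at 9.67%.

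These shares pool the mice, and mouse A gave 61 of the 107 cells. Of the epithelial-like UMIs, mouse A held 12 of 14 for Olfm4 and 6 of 7 for Ascl2, but 13 of 54 for Lgr5. For Axin2 it held 55 of 97. The pooled share of a gene thus also depends on which mice gave its UMIs, and the part of mouse make-up was not tested. Without mouse A, a setting chosen after the data had been seen, the cluster held 4.43% of the epithelial UMIs, 62.2% of those of Slc12a2, 42.9% of Cd44, 40.0% of Smoc2, 31.6% of Sox9 and 7.32% of Lgr5 (3 of 41). For Olfm4, Ascl2 and Axin2 it then held 0 of 2, 0 of 1 and 0 of 42 UMIs, so the gathering of Olfm4 and Ascl2 was seen in mouse A alone.

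Of the 50 epithelial-like cells with Lgr5, 7 (14%) had a UMI of any of the other 7 genes, against 148 of 1612 cells without it (9.18%), at median depths of 1941 and 1548 UMIs. Cells with Olfm4 held another member beyond Lgr5 in 7 of 10 cases (70%), those with Smoc2 in 12 of 19 (63.2%) and those with Slc12a2 in 23 of 41 (56.1%). The median depths of these cells were 3661, 4345 and 2910 UMIs, above that of cells with Lgr5, and the part of depth was not tested. Of cells with Axin2, at a median depth of 3382 UMIs, 6 of 79 (7.59%) held another member beyond Lgr5. No cell held both Lgr5 and Ascl2, or both Lgr5 and Smoc2, among the epithelial-like cells. With Lgr5 in 50, Smoc2 in 19 and Ascl2 in 5 of these cells, 0 shared cells cannot show that the genes part. In mesenchymal-like cells 5 of the 10 with Lgr5 (50%) held another member, 3 of them Smoc2, against 91 of 326 without it (27.9%), at median depths of 1751 and 1010.5 UMIs.

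In wells too shallow to count as cells the rate of Lgr5 rested on mice B and F. Over all mice it was 171 CPM (exact 95% Poisson interval 117 to 242) in 5804 wells under 100 UMIs, 53.7 in 3018 wells of 100 to under 400 UMIs, 16.2 in 3449 wells of 400 to 8000 UMIs and 12.3 in 75 wells over 8000 UMIs. The ratio of the shallowest wells to those of 400 to 8000 UMIs was 10.6, and 0.640% of the 8120 genes with at least 50 UMIs had a ratio of 10 or more. For the other members the ratio was 0 to 4.01, with 4.01 for both Ascl2 (1 UMI in the shallow wells) and Sox9 (6 UMIs).

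Of the 32 Lgr5 UMIs in wells under 100 UMIs, 22 came from mouse F and 8 from mouse B. Without these mice, a setting chosen after the data had been seen, the rate was 14.05 CPM (2 UMIs, 1.70 to 50.7) in wells under 100 UMIs, 9.50 in those of 100 to under 400 and 11.6 in those of 400 to 8000, so no higher rate of Lgr5 was seen in shallow wells of the other 6 mice. Sox9 was then at 35.1 CPM (5 UMIs) and 7.84 CPM in the shallowest wells and those of 400 to 8000 UMIs. The Lgr5 UMIs of wells under 400 UMIs were gathered on few plates. A plate of mouse F sorted as PdgfraSingletsPop3 held 37 of them, in 30 wells, one of mouse B with the same gate held 12, and one of mouse B sorted as TripleNeg held 11. The other 32 plates held 0 to 2 each. Without mice B and F, Lgr5 was in 30 of 1339 epithelial-like cells (2.24%) and in 9 of 331 mesenchymal-like cells (2.72%). The study's methods subtract the mean of each plate's empty wells from every cell, which was not done here. The cause of this rate was not tested.

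**Figure D5:**
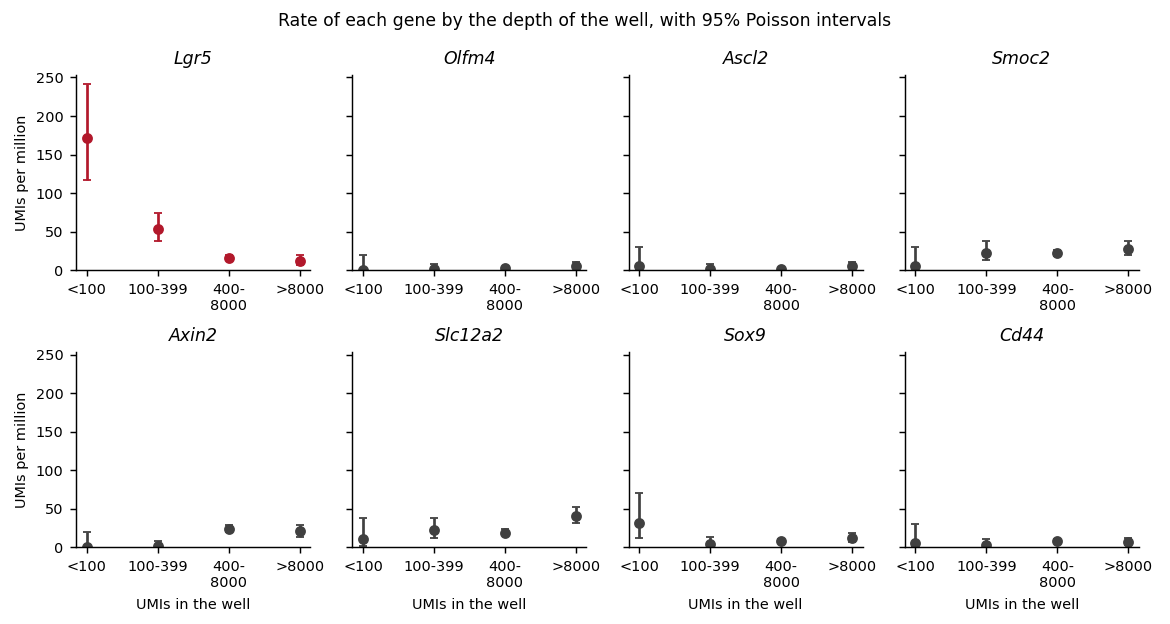
Each panel plots 1 gene as CPM against the depth of the well in 4 ranges, with exact 95% Poisson intervals. Lgr5, in red, is at 171 CPM in wells under 100 UMIs and 16.2 in wells of 400 to 8000 UMIs, while Sox9, the next highest in the shallowest wells, is at 32.2; without mice B and F the first value is 14.05.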

How the data were processed

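Epithelial and single-cell files hold UMI counts: per the study's methods the authors aligned mcSCRB-seq and MARS-seq reads to GRCm38 with zUMIs and deposited the counts without scaling. The microdissection file holds TPM that the authors deposited after kallisto and sleuth on coding transcripts of SMARTseq libraries. The labels name bcl2fastq 2.15.0.4 and GRCm38. No background was subtracted from single cells.

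Epithelial genes above 1e-05 of a sample's UMIs in at least 2 samples were tested with edgeR 4.0.16 (TMM, robust quasi-likelihood, batch as a term, Benjamini-Hochberg at 0.05), with DESeq2 1.42.0 as an alternative. Microdissection values were rescaled to ppm after 375 abundant genes of the control epithelium were left out, a longer list than the study's and from other data, and after genes at 1% or more were kept out of the sum, and genes with a zone mean above 5 ppm, with the members, were tested with limma 3.58.1 on log2(ppm + 1). Such a fold change understates that of low genes. The mouse was the replicate. Single cells were clustered with Seurat 5.3.0 and summed by mouse. The planned ratio of Lgr5 to Olfm4 in the stroma could not be run, since Olfm4 was not analysed there. The authors' own comparisons were not used. One plate of 352 wells matched no sample and was left out.

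The 8 members and all gene lists were chosen with earlier results of these data known. Genes named outside the members were, for each list, every gene called in DT against control and otherwise up to 4 of lowest p, those most like Lgr5 or Olfm4, and marker genes of other cells where their list is given. The models were tested on simulated data first. Same-numbered epithelial samples correlated at 0.41 to 0.66 in their deviations from the group means, but at -0.16 and -0.06 once batch means were also removed. Zones of the same mouse share an animal and count as pairs, but fits without the mouse term are the ones printed unless stated, since the crypt of 2 mice was not analysed here. Their deviations had correlations of -0.07 to 0.36 for tip and crypt and 0.095 to 0.44 for tip and bottom.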

Additional observations from a re-analysis of the deposited data

Results flagged for a closer look

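In 6 of 41 groups of 4 to 10 samples, 1 value stood apart from the others by Dixon's criterion. Chance gives this in about 1 group in 20 for normally distributed values. The criterion was applied to ppm and CPM without logs, which can be skewed, so the number flagged cannot be set against that rate. All 6 were microdissected zones. Lgr5 at the villus tip was at 334 ppm in mouse 5, and Lgr5 in the villus center was lowest in mouse 1, at 0.516 ppm. Ascl2 was highest at the villus bottom in mouse 1 (1.15 ppm) and at the villus tip in mouse 3 (4.27 ppm), where the other 4 mice were at 0. With the other 4 at 0, any value above 0 meets the criterion. Sox9 at the villus tip was highest in mouse 3, at 49.8 ppm, and Cd44 in the villus center in mouse 4, at 199.7 ppm.

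Wells outside the limits for cells also held members above the limit that a count of 0 allows. In wells under 100 UMIs, Lgr5 was at 171 and Sox9 at 32.2 CPM, and without mice B and F Lgr5 was at 14.05 CPM. In wells of 100 to under 400 UMIs, Lgr5 was at 53.7, and Smoc2 and Slc12a2 were both at 23.0 CPM. In wells over 8000 UMIs all 8 members were found, with Lgr5 at 12.3, Olfm4 and Ascl2 at 5.84 each, Smoc2 at 27.9, Axin2 at 20.8, Slc12a2 at 40.9, Sox9 at 11.7 and Cd44 at 6.49 CPM. The cause of the Lgr5 rate in shallow wells was not tested.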

How the results depend on the processing

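For DT against control, the 84 alternatives of the 7 Lgr5 ratios kept a lower ratio after DT and missed the threshold. Among them, the permutations within batches and the sign flips of same-numbered pairs could not reach 0.05, so their miss was fixed in advance. With no filter on low values 1 member, Ascl2, was called higher (adjusted p 0.00181 in edgeR). Leaving out any 1 sample called 0 members. The log2 fold change of Olfm4 was -0.11 in batch b alone. Of the other genes named, Myc was -0.0052 and Areg -0.37 in batch a alone and Ccnd1 was -0.22 in batch b alone. Leaving out a sample gave -0.067 to 0.38 for Myc, -0.048 to 0.51 for Ccnd1 and -0.18 to 1.17 for Areg, with the lowest values without DT replicate 3 for Myc and DT replicate 4 for Ccnd1 and Areg. Pde3a turned to 0.0015 with no batch term, 0.016 with no TMM and 0.13 in batch a alone. Leaving out a sample gave -0.0074 to 0.19 for Tmem176a (lowest without DT replicate 2) and -0.100 to 0.094 for Pde3a. Mptx2 and Itln1 lost their calls with no batch term and in batch a alone, and Itln1 in batch b alone. No filter called Igfbp4, Birc5, Ccna2, Ccnb1, Tyms and Ebf1. DESeq2 gave the adjusted p of Ascl2 as NA, and Ascl2 had no value in batch a alone. Counts over all genes moved from 32 to 143 with DESeq2, 635 with no filter, 1 with no batch term, 3 with the replicate block, 0 in batch a alone and 5 in batch b alone. Leaving out a sample gave 3 to 41 genes, with 3 without control replicate 1, 21, 10 and 11 without control replicates 2, 3 and 4, and 7 and 9 without DT replicates 2 and 3. The replicate block changed no member's call, and 4 of 8 samples ran best with their own number.

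For the villus tip against the crypt, no filter called 2 genes of all and no member, and leaving out any 1 mouse called 0 members. Axin2 turned to 0.35 and Sox9 to 0.11 with mouse as a replicate block, and Cd44 to 0.33 without mouse 2 and 0.065 without mouse 3. The ratio of Lgr5 to Sox9 was -0.31 in the paired mice, and leaving out a mouse gave 0.42 to 2.94. For the tip against the bottom, Ascl2 was -0.28 without mouse 3, and the ratio of Lgr5 to Sox9 ran from -0.38 (without mouse 5) to 1.01. Lgr5 itself was at 0.29 to 2.84 over the crypt when a mouse was left out.

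In the single cells, epithelial-like against mesenchymal-like sums called 2 members with no filter, 1 with cells of 200 to 8000 UMIs, and 0 to 2 when a mouse was left out (2 without mouse E). All genes called moved from 2309 to 4792 with no filter and ranged from 1263 (without mouse G) to 3004. Between telocyte classes 28 genes became 14 with DESeq2, 2 with no filter and 9 without doublet gates, and 9 (without mouse A) to 25 when a mouse was left out. Same-mouse sums did not run together (-0.07 to 0.07). Without doublet gates the Olfm4 share of epithelial-like cells was 0.273% in place of 0.602%. Low UMI numbers limit every single-cell value, and TPM give no depth for the stroma.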
